A study of Homo sapiens with 6 samples.

Results

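The genes described here encode the MYC and MAX network of transcription factors: MYC, MYCN and MYCL, their partner MAX, the antagonists MXD1, MXD3, MXD4, MXI1 and MNT, and the MAX-like factor MLX. They were taken from the array table by symbol, as all probe sets annotated to 1 of these 10 genes alone, which gave 31 probe sets of 9 genes among 54613 probe sets in all. MXD4 was not read, since the 3 probe sets that carry its symbol carry another symbol too. RNA came from MM1S, an established human multiple myeloma cell line, on 3 arrays labelled normoxia and 3 labelled hypoxia. The treatment text gives a hypoxic exposure of 24 h on all 6 arrays, normoxia included, so the groups rest on the titles and condition labels alone, and the 24 h is read here as the exposure of the hypoxia arrays. Both groups are this single line, no genetic change or further agent is named in the labels, and an oxygen level was not used here. The labels do not say that the arrays of a group came from separate cultures, so p-values measure the spread between these arrays, which may be technical.

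MYC proteins bind DNA as heterodimers with MAX, mostly at the E-box sequence CACGTG, and activate genes of growth, nucleotide synthesis and ribosome production. The MXD proteins, MXI1 and MNT compete for MAX, bind the same sites and recruit SIN3 corepressor complexes, so the balance between MYC and these antagonists is a textbook switch between growth and arrest. MLX is the partner of the glucose-responsive factors MLXIP and MLXIPL and also pairs with some antagonists. In multiple myeloma, MYC is often rearranged or overexpressed, and MXI1 is a known target of the hypoxia-inducible factors.

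Array medians lay between 54.95 and 60.13 intensity units, and arrays of a group correlated at 0.988 to 0.993 on the log2 scale across probe sets against 0.962 to 0.968 between groups. Of 11 plasma cell markers, 10 lay above the median of every array, CD27 being the other, and their summed intensity was 54919 to 56930.4 in normoxia and 53776 to 56279 in hypoxia. Of these markers 4 fell, SDC1, CD38, MZB1 and SLAMF7, 1 rose, XBP1, and 6 did not pass. Of 13 measured markers of T, myeloid, erythroid, epithelial and fibroblast cells, HBB was the brightest, at 1751 ± 128 in normoxia and 1125 ± 27.7 in hypoxia (SD, n = 3 arrays per group). HBB fell with the condition while CD3D, with means of 98.3 and 132, and EPCAM, with means of 24.8 and 67.3, rose; their part in the results below was not tested. As the arrays measure bulk RNA, fewer cells of a kind and less RNA per cell cannot be told apart.

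In hypoxia MYC fell, the antagonist genes MXI1, MXD1 and MXD3 rose, and the antagonist gene MNT fell. MAX was flat on its brightest probe set and rose on 2 others, and MLX fell slightly. Over all member probe sets, 6 rose, 5 fell and 20 did not pass an adjusted p of 0.05 in limma, the test used throughout. These 11 are 35.5% of the members, against 30.7% called over all probe sets, so the share is near the background, and what follows describes the genes rather than their number. Each change is the mean log2(intensity + 16) in hypoxia less that in normoxia, so changes of dim probe sets come out too small. Intensities of different probe sets are not comparable as amounts of RNA, so levels are compared between conditions within a probe set.

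**Figure D1:**
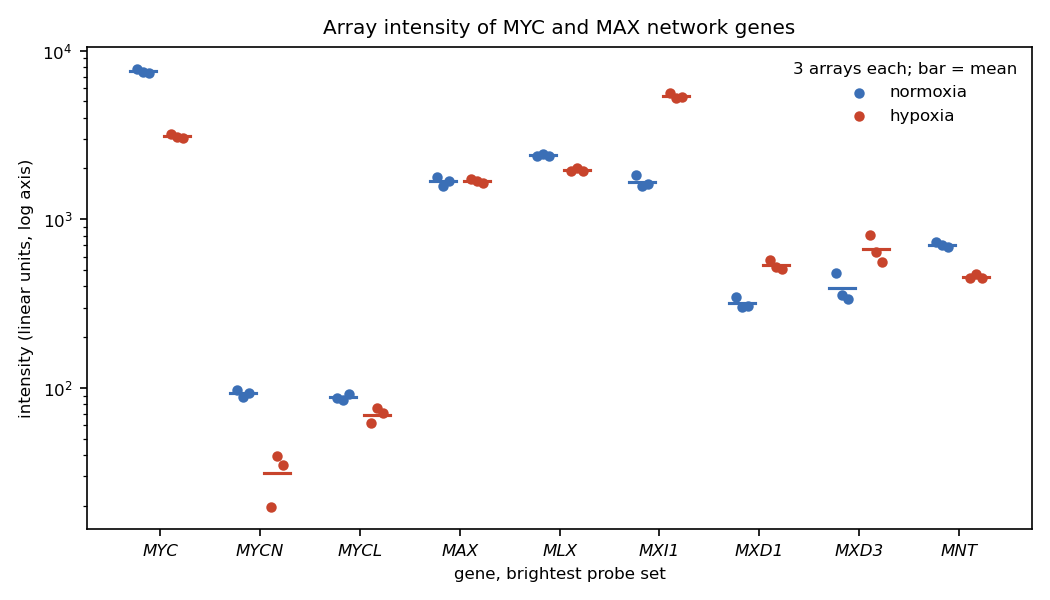
Intensity of the brightest probe set of each of the 9 measured genes, on a log axis, with 1 point per array (3 normoxia, 3 hypoxia) and a bar at the mean. The arrays of the conditions do not overlap for MYC, MYCN, MYCL, MLX, MXI1, MXD1, MXD3 and MNT, and they overlap for MAX.

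MYC, the founding member of the family, was read by 1 probe set, 202431_s_at. Its intensity was 7782, 7499 and 7338 on the normoxia arrays and 3186, 3089 and 3020.1 on the hypoxia arrays. All hypoxia arrays lay far below all normoxia arrays, and arrays of a condition stayed close together. The mean went from 7540 ± 225 to 3098 ± 83.4, a 2.43-fold fall (log2 change -1.28, 95% interval -1.44 to -1.11, adjusted p = 9.28e-05 in limma across all probe sets). The size of this change exceeded that of 96.0% of all probe sets. Of these 54613, 23509 had a mean intensity of 100 or more in a condition, and changes of dim probe sets come out too small. A rank among probe sets of like brightness was not taken.

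The paralogues MYCN and MYCL, which are best known from neural and lung tumours, were dim. Of the 10 probe sets of MYCN, 9 lay below the median of every array, with group means of 2.05 to 44.0 and arrays of the conditions that overlapped. None of these 9 passed, with log2 changes of -0.22 to 0.36. The brightest, 209757_s_at, was at 96.8, 89.0 and 92.9 in normoxia and at 19.7, 39.4 and 35.1 in hypoxia. Its hypoxia arrays all lay lower (log2 change -1.23, 95% interval -1.65 to -0.81, limma adjusted p = 0.00263). The fall of MYCN thus rests on 1 of 10 probe sets that starts near the array median, where signal cannot be told from background, and with the mean of its probe sets the change was -0.125 (limma adjusted p = 0.258). For MYCL, probe set 214058_at was at 86.7, 84.4 and 92.5 in normoxia and at 61.9, 75.7 and 70.7 in hypoxia. These arrays did not overlap, yet the change of -0.28 did not pass over all probe sets (limma adjusted p = 0.0552), while it passed in the fit over genes (limma adjusted p = 0.0364), with median centring (0.0195), with quantile normalization (0.0129) and with a pseudocount of 64 (0.0439). The other MYCL probe set, 215491_at, had overlapping arrays with means of 35.3 and 44.4 and a log2 change of 0.23. With the mean of both MYCL probe sets the change was -0.030 (limma adjusted p = 0.922).

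MXI1, an antagonist that pairs with MAX and recruits SIN3, had the largest rise among the members. Its single probe set, 202364_at, was at 1822, 1565 and 1618 in normoxia and at 5608, 5233 and 5269.7 in hypoxia. Every hypoxia array lay far above every normoxia array. The mean went from 1668 ± 136 to 5370.2 ± 207, a 3.22-fold rise (log2 change 1.68, 95% interval 1.47 to 1.89, limma adjusted p = 8.75e-05). This change was larger in size than that of 98.4% of all probe sets, again with the dim ones included. MXI1 moved opposite to MYC, and the confidence intervals of the changes, 1.47 to 1.89 and -1.44 to -1.11, lay on opposite sides of 0.

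MXD1, also known as MAD1, an antagonist linked to differentiation, rose on both of its probe sets that were not dim. On 226275_at it was at 348, 303 and 306 in normoxia and at 574, 524 and 506 in hypoxia (log2 change 0.72, 95% interval 0.50 to 0.94, limma adjusted p = 0.00166). On 228846_at it was at 127, 109 and 108 in normoxia and at 307, 293 and 296 in hypoxia (log2 change 1.27, 95% interval 1.07 to 1.48, limma adjusted p = 0.000165). On either probe set every hypoxia array lay above every normoxia array. The probe sets differed in size: the log2 value of 228846_at minus that of 226275_at was -1.36 ± 0.015 in normoxia and -0.81 ± 0.064 in hypoxia. An exact two-sided permutation test of that difference gave p = 0.1, the smallest that 3 against 3 arrays allow, for a pair chosen after the values were seen. The third probe set, 206877_at, was dim, with means of 15.2 ± 10.2 and 20.0 ± 13.1, and did not pass.

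MXD3, an antagonist that is unusual in being tied to S phase and proliferating cells, rose with a wider spread. Its probe set 221250_s_at was at 478, 354 and 337 in normoxia and at 807, 639 and 558 in hypoxia. The array numbered 0 was the highest of each condition, and the groups did not overlap. The mean went from 389.7 ± 76.7 to 668 ± 127 (log2 change 0.75, 95% interval 0.30 to 1.20, limma adjusted p = 0.0245). The call was lost without hypoxia array 0 or 1 (log2 change 0.61 and 0.78, limma adjusted p = 0.0586 and 0.0661) and without normoxia array 1 or 2 (0.69 and 0.66, adjusted p = 0.0861 and 0.0813).

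MNT, the most broadly expressed antagonist, went the other way. Probe set 204206_at was at 729.8, 700.3 and 689 in normoxia and at 451, 472 and 449 in hypoxia. Every hypoxia array lay lower, and the mean went from 706 ± 21.1 to 457 ± 12.9 (log2 change -0.61, 95% interval -0.77 to -0.44, limma adjusted p = 0.00102). The dimmer probe set, 236749_at, was at 217, 184 and 218 in normoxia and at 160.2, 185 and 146 in hypoxia, so that 1 hypoxia array lay just above the lowest normoxia array. Its change of -0.31 did not pass (limma adjusted p = 0.0949), though it did with dim probe sets left out (adjusted p = 0.0310), with median centring (0.0475) and with quantile normalization (0.0417). Of the 7 probe sets of the antagonists, 4 rose, 1 fell and 2 did not pass, and of the 13 of the MYC paralogues, 0 rose, 2 fell and 11 did not pass, 10 of which lay below every array median. Over all probe sets, 15.5% rose and 15.2% fell. The 2 groups differ in brightness, as 6 of 7 antagonist probe sets had a mean intensity of 100 or more in a condition, against 1 of 13 paralogue probe sets. Among all probe sets at that level, 28.3% rose and 29.5% fell.

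**Figure D2:**
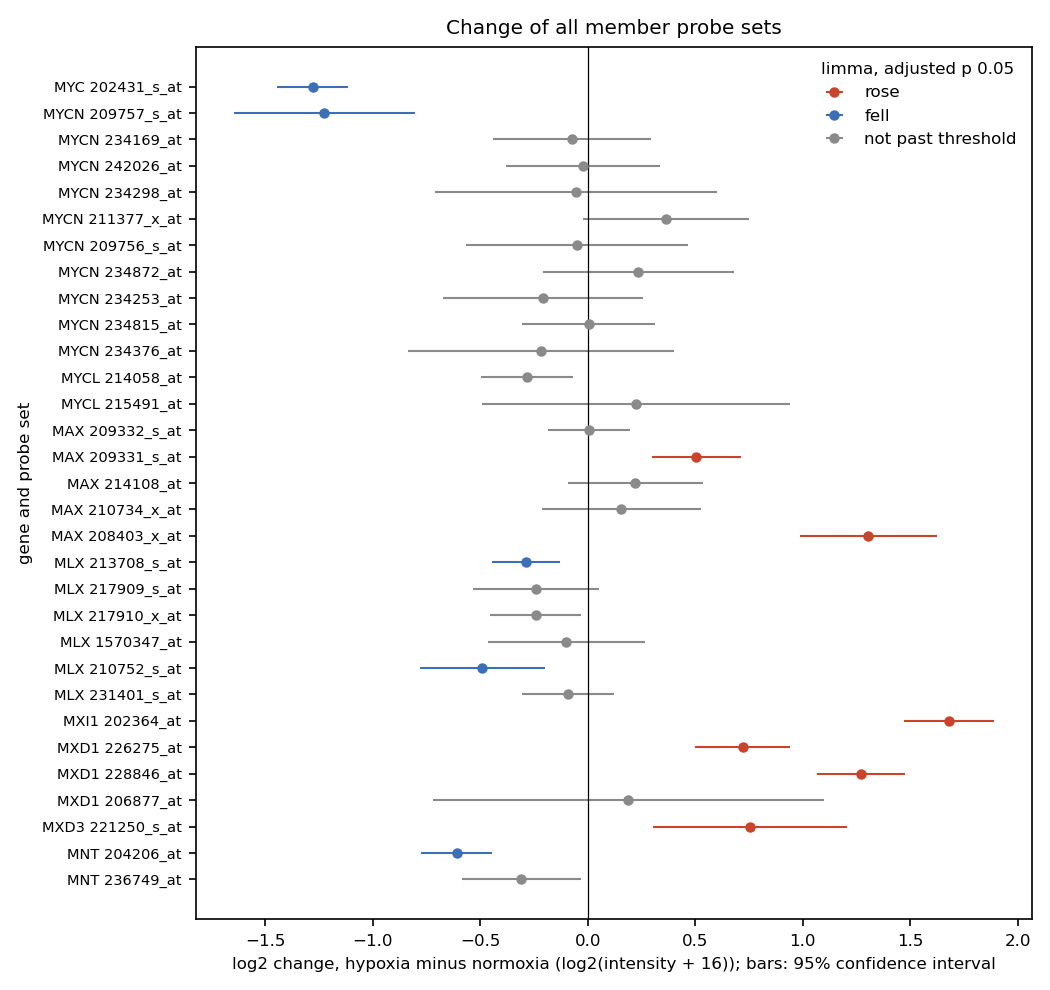
Log2 change, hypoxia minus normoxia, of all 31 member probe sets, with 95% intervals, in red where the probe set rose, in blue where it fell and in grey where it did not pass. The changes run from -1.28 for MYC to 1.68 for MXI1, and the grey probe sets of MYCN scatter around 0.

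Promoter windows are shown for the antagonists whose RNA moved and for MLX, to set the genes that rose together beside those that fell. They are the 250 bases before the annotated start, from RefSeq on GRCh38.p14, printed 5′ to 3′ on the strand of the gene. Capitals mark ACGTG and GCGTG, the core of sites of the hypoxia-inducible factors, and CACGTG, the E-box of the MYC and MAX network, on either strand. Since CACGTG contains ACGTG on both strands, each E-box also counts as the core.
MXI1, first start, chr10:110207355-110207604, plus strand: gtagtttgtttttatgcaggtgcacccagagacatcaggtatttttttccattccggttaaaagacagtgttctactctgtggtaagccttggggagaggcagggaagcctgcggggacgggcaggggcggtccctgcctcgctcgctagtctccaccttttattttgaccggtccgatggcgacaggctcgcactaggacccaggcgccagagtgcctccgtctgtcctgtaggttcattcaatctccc
MXI1, middle start, chr10:110209981-110210230, plus strand: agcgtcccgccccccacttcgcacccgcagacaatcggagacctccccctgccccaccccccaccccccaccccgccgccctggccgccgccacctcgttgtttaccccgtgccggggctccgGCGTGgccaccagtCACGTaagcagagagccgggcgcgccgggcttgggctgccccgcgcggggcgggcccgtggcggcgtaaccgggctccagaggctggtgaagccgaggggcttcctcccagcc
MXI1, last start, chr10:110225746-110225995, plus strand: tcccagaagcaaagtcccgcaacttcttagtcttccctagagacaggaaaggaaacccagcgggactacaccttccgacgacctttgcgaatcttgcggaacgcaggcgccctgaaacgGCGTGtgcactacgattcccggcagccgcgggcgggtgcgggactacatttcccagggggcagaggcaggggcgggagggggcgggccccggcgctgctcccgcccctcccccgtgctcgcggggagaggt
MXD1, chr2:69914859-69915108, plus strand: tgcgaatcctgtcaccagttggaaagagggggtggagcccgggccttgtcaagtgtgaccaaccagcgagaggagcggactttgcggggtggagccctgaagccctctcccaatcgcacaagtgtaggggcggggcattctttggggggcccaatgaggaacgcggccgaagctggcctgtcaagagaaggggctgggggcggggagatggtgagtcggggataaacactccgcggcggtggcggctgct
MXD3, chr5:177312753-177313002, minus strand: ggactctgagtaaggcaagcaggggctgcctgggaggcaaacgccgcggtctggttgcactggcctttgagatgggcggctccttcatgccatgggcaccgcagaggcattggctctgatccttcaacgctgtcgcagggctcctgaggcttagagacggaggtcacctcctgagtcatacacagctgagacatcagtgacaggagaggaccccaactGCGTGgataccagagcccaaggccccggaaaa
MNT, chr17:2401061-2401310, minus strand: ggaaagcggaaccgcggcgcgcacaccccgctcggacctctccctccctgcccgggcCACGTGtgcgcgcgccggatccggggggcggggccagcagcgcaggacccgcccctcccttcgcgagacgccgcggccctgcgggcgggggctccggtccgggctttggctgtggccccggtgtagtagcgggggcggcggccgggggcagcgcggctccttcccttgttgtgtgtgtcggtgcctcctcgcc
MLX, chr17:42566850-42567099, plus strand: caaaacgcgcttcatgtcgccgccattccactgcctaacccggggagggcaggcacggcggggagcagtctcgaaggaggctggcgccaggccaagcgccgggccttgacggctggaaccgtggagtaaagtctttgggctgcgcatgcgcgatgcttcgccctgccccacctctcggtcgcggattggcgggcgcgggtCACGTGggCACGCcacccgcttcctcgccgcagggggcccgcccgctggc

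Windows were read for 9 genes other than MYC, 12 in all, because MXI1 has 3 annotated starts and MAX has 2. The core ACGTG or GCGTG was in 7 of the 12 windows, against 43.2% of 35116 promoters of the same length, and CACGTG was in 3 of 12, against 6.3%. MXI1 held 2 cores before its middle start, beginning 127 and 113 bases before it, 1 before its last start, at 131 bases, and 0 before its first. MXD3, which rose, held 1 at 32 bases, and MXD1, which also rose, held 0. A link between these motifs and the changes was not tested. MNT and MLX, which fell, held CACGTG at 193 and 50 bases, and MLX held a further core outside its E-box, at 42 bases. MAX held 1 core before 1 of its starts, at 22 bases, and the third E-box window was that of MXD4. The sole MXI1 probe set does not tell which start was used. For MAX too the start in use was not tested, and the window before 1 annotated start may lie within the transcript of another.

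MAX, the obligate partner of MYC and of the antagonists, gave different answers on its 5 probe sets. The brightest, 209332_s_at, was at 1792, 1571 and 1686 in normoxia and at 1732, 1682 and 1643 in hypoxia. These arrays overlapped fully, with a log2 change of 0.0037 (95% interval -0.19 to 0.19, limma adjusted p = 0.982). Probe set 209331_s_at was at 751, 732 and 731 in normoxia and at 969, 1151 and 1049 in hypoxia, all higher (log2 change 0.51, 95% interval 0.30 to 0.71, limma adjusted p = 0.00552). Probe set 208403_x_at was at 83.4, 70.4 and 57.5 in normoxia and at 183, 191 and 215 in hypoxia, all higher (log2 change 1.31, 95% interval 0.99 to 1.62, limma adjusted p = 0.000686). Its normoxia arrays lay near the array median, a level at which background may make up much of the signal, and the size of this rise is therefore uncertain. The suffix x marks probe sets whose probes can match other transcripts, so this rise may not be of MAX alone. The suffix is also on 210734_x_at of MAX, 211377_x_at of MYCN and 217910_x_at of MLX. Among genes named outside the members, it is on the probe sets read for HBB, SAP30, SKP2, TFAM, KAT5, HNRNPD and PABIR2. Those readings too may not be of the named gene alone.

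The remaining MAX probe sets, 214108_at and 210734_x_at, had overlapping arrays and changes of 0.22 and 0.16 that did not pass; the first passed without hypoxia array 0 (log2 change 0.35, limma adjusted p = 0.0370). With the mean of the 5 probe sets MAX rose by 0.44 (limma adjusted p = 0.00357), so the call for the gene depends on how its probe sets are read.

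MLX was lower in hypoxia by a small amount on all 6 probe sets, and 2 passed. The brightest, 213708_s_at, was at 2378, 2438 and 2386 in normoxia and at 1930.4, 2013 and 1943 in hypoxia. Its groups were tight and apart (log2 change -0.29, 95% interval -0.45 to -0.13, limma adjusted p = 0.0171). The call was lost without hypoxia array 2 (-0.28, adjusted p = 0.0599) and without normoxia array 1 or 2 (-0.28 and -0.29, adjusted p = 0.0596 and 0.0555). It was also lost without both arrays numbered 0 (-0.28, limma adjusted p = 0.0583). Probe set 210752_s_at was at 178, 143 and 163 in normoxia and at 96.6, 125 and 109 in hypoxia (log2 change -0.49, limma adjusted p = 0.0240). That call was lost in 4 of the 6 fits that leave out 1 array: without hypoxia array 0 or 2 (-0.41 and -0.49, adjusted p = 0.0594 and 0.0721) and without normoxia array 0 or 2 (-0.42 and -0.48, adjusted p = 0.0720 and 0.0755). The same call was lost without both arrays numbered 0 (-0.34, limma adjusted p = 0.111) and with the replicate block (0.0821). Of the rest, 217909_s_at and 217910_x_at were both at -0.24, 1570347_at at -0.10 and the dim 231401_s_at at -0.091. Of these, 217910_x_at had arrays that did not overlap and passed without hypoxia array 0 (-0.32, limma adjusted p = 0.0235). It also passed without both arrays numbered 0 (adjusted p = 0.0454 in limma), with dim probe sets left out (0.0229), with an intensity trend (0.0236) and with a pseudocount of 64 (0.0403).

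**Figure D3:**
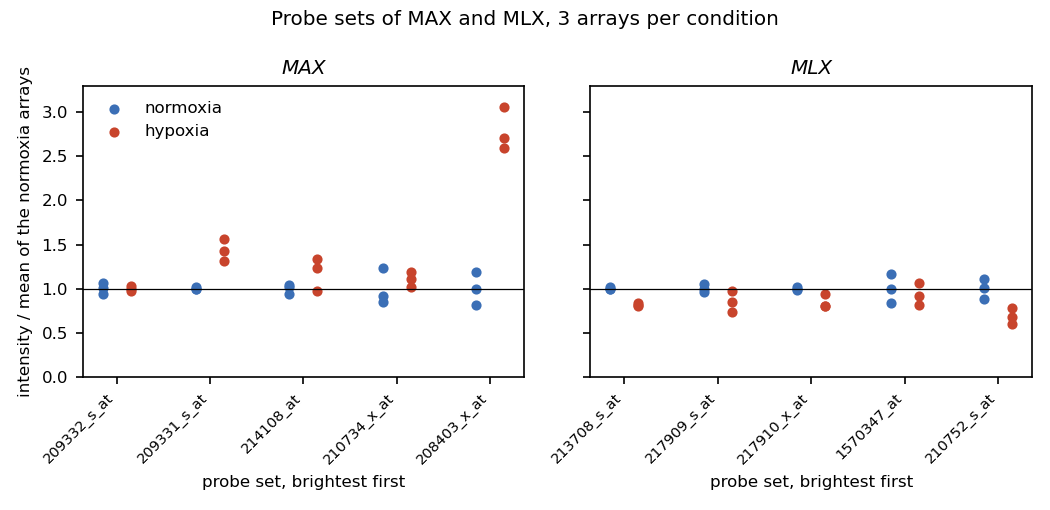
Intensity of each probe set of MAX (left) and MLX (right) on every array, divided by the mean of its 3 normoxia arrays, with probe sets ordered from bright to dim and the dim MLX probe set 231401_s_at left out. The hypoxia arrays of MAX spread from no change on 209332_s_at to the highest ratios on 208403_x_at, while those of MLX lie at or below their normoxia arrays on most probe sets.

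Over the members as a whole, 13 of 31 probe sets (41.9%) had arrays of the conditions that did not overlap, against 42.5% over all probe sets. Of the 31, 17 had a mean intensity of 100 or more in a condition, of which 10 were called, 58.8% against 57.8% of all such probe sets (28.3% rose, 29.5% fell), and 11 did not overlap, 64.7% against 72.8%; 208403_x_at of MAX reached that level in hypoxia only. In limma, 7 of the 11 calls are reached under every alternative run with a value, a gene's averaged probe sets being counted with its brightest. These are the calls of MYC, MXI1 and 204206_at of MNT, and both calls each of MXD1 and MAX. That of 209757_s_at of MYCN is lost only when the MYCN probe sets are averaged.

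The genes below were each read by the brightest probe set and tested in the fit over 19775 genes. Of these genes 16.9% rose, 20.6% fell and 37.4% were called in either direction, with a median log2 change of -0.00016. These shares include dim genes, while most list genes reached an intensity of 100 in a condition. Among all probe sets at that level, 57.8% were called (28.3% rose, 29.5% fell) in the fit over probe sets. The lists were chosen with earlier results of these data known, and each is described by its counts. Among the further members of the extended network, MGA, a large MAX partner of a non-canonical polycomb complex, fell from 561 ± 40.6 to 384 ± 21.7 (log2 change -0.53, limma adjusted p = 0.00295). MLXIP, also called MondoA, went up, with means of 437 ± 22.5 and 612 ± 23.5 (log2 change 0.47, adjusted p = 0.00223 in limma), opposite to its partner MLX. MLXIPL, also called ChREBP, was dim at 39.7 ± 1.88 and 26.4 ± 13.6 and did not pass, though it did without hypoxia array 0 (log2 change -0.68, limma adjusted p = 0.00584). Of 5 textbook targets of MLX with these partners, 1 rose, 2 fell and 2 did not pass (median -0.063). ARRDC4 fell from 256 ± 31.3 to 58.1 ± 9.88 and KLF10 fell by 0.48, ARRDC3 rose by 0.72, and TXNIP and PKLR were at -0.063 and 0.11.

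Genes of the SIN3 corepressor complex, through which MXI1, the MXD proteins and MNT repress, were split. Of 15 measured, 8 rose, 4 fell and 3 did not pass, with a median change of 0.33. SAP30, a bridging subunit, rose from 3253 ± 177 to 5824 ± 54.4 (log2 change 0.84), and ING2, a reader of methylated histone H3, rose from 1149 ± 91.1 to 2068 ± 175 (0.84). The histone-binding subunit gene RBBP4 fell from 5551 ± 47.1 to 3736 ± 175 (-0.57) and BRMS1 by 0.56. Outside the naming rule, chosen once values were known, were the falls of the deacetylase gene HDAC2 at -0.46 and RBBP7 at -0.33. Averaged over its probe sets RBBP4 was at -0.32. SIN3A and SAP18 were also named after their values were seen. SIN3A, which rose by 0.43 on its brightest probe set, was at 0.11 when averaged (limma adjusted p = 0.262). SAP18, which did not pass on its brightest probe set, was at -0.43 when averaged (limma adjusted p = 0.00160). The counts of this list thus depend on the probe set read.

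MYC cofactor genes also went both ways, with 4 of 17 higher, 5 lower and 8 not past the threshold (median -0.13). RUVBL1, an ATPase of the TIP60 and INO80 complexes, fell from 3207 ± 100.4 to 1374 ± 64.4 (log2 change -1.21), and the acetyltransferase gene KAT2A and the shared actin-related subunit gene ACTL6A fell by 0.69 and 0.64. BPTF, a chromatin remodeller subunit, rose by 0.50. Named after their values were seen, RUVBL2 was at -0.37 and CTR9 at -0.36, TRRAP at 0.44, KAT5 at 0.31 and ZBTB17 at 0.52. KAT5 lost its call without hypoxia array 1 or 2 or normoxia array 2 (limma adjusted p = 0.0591, 0.0557 and 0.0550), and ZBTB17 did so without normoxia array 0 or any hypoxia array (limma adjusted p = 0.0534 to 0.0863). Without hypoxia array 2 the number that rose was 2. With averaged probe sets ZBTB17 also lost its call (0.40, limma adjusted p = 0.0880). WDR5, also named after its value was seen, was at -0.20 and did not pass. Averaged over its probe sets it was at -1.30 (limma adjusted p = 0.000358), so the counts depend on the probe set read.

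Of 18 genes that control the stability of the MYC protein, 4 rose, 6 fell and 8 did not pass (median -0.030). CIP2A, which shields MYC from the phosphatase PP2A, fell from 979 ± 24.6 to 400.3 ± 19.7 (log2 change -1.26). SKP2, an F-box protein that binds MYC, fell from 2512 ± 14.6 to 1137 ± 79.7 (-1.13), and the deubiquitinase gene USP36 fell by 0.91. FBXO32, another F-box protein, rose from 129 ± 19.5 to 731 ± 54.0 (2.37). Named after their values were seen, FBXW7, the F-box protein that marks phosphorylated MYC for destruction, was at 0.83, GSK3B, the kinase that creates that mark, at 0.41 and USP7 at 0.26. Averaging probe sets gave smaller changes of SKP2 (-0.58), USP36 (-0.48) and FBXO32 (1.24). With the mean of their probe sets GSK3B and USP7 were at -0.049 and -0.21 (limma adjusted p = 0.624 and 0.0826).

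Of 18 genes of factors that act on the MYC gene or its mRNA, 4 rose, 3 fell and 11 did not pass (median 0.051). FUBP1, which binds the far-upstream element of MYC, rose from 3416 ± 63.3 to 5708 ± 149.5 (log2 change 0.74), and its repressive partner PUF60 fell from 2034 ± 53.4 to 1276 ± 112 (-0.67). STAT3, the transducer of interleukin signals, rose by 0.93. The RNA-binding protein gene TIAL1 rose by 0.39 on its brightest probe set, whereas averaging its probe sets gave a fall, by 0.53 (limma adjusted p = 0.00390). Named after their values were seen, IGF2BP2 was at 0.42, ELAVL1 at -0.46 and HNRNPD at -0.19, the last losing its call without any 1 of the 6 arrays (limma adjusted p = 0.0546 to 0.145). With averaged probe sets FUBP1 was at 0.29, IGF2BP2 at 0.24, ELAVL1 at -0.19 and HNRNPD at -0.30. IRF4, a driver of MYC in myeloma cells and also named outside the rule, was at 5886 ± 361 and 6116 ± 223 and did not pass.

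Of 37 textbook MYC-activated genes, 28 fell, 3 rose and 6 did not pass, with a median change of -0.63. CTPS1, which makes CTP, fell from 1512 ± 35.6 to 285 ± 15.2 (log2 change -2.35), and UBTF, a factor of RNA polymerase I, from 2325 ± 32.5 to 627 ± 20.9 (-1.87). POLR1B, a subunit of that polymerase, fell from 2645 ± 142 to 622 ± 59.1 (-2.06), and TFAM, which packages mitochondrial DNA, from 3177 ± 66.6 to 1255 ± 47.5 (-1.33). The 3 that rose, named after their values were seen, were the nucleotide synthesis genes IMPDH2 at 0.42 and GART at 0.47, and the glycolytic gene ENO1 at 0.40. Averaged over its probe sets GART fell by 0.48 (limma adjusted p = 0.00226), and ENO1 was at 0.92. UBTF, POLR1B and TFAM were then at -1.37, -1.47 and -1.34. The falls of TFRC, E2F1, NCL and PRDX3, also named after their values were seen, no longer passed when averaged (limma adjusted p = 0.0611 to 0.258). Of 11 textbook MYC-repressed genes, 2 rose, 2 fell and 7 did not pass (median -0.035). NDRG1, which is also a target of the hypoxia-inducible factors, rose from 1612 ± 67.7 to 7643 ± 319 (2.23), and the cell cycle inhibitor gene CDKN1B from 4576 ± 194 to 6494 ± 181 (0.50). GAS1 fell from 196 ± 0.71 to 59.0 ± 11.6 (-1.51), and the stress gene GADD45B fell by 0.65. Averaged over its probe sets GAS1 was at -0.63. The adjusted p-values in limma of the genes named by rule in these lists and called were 2.07e-05 to 0.00295.

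**Figure D4:**
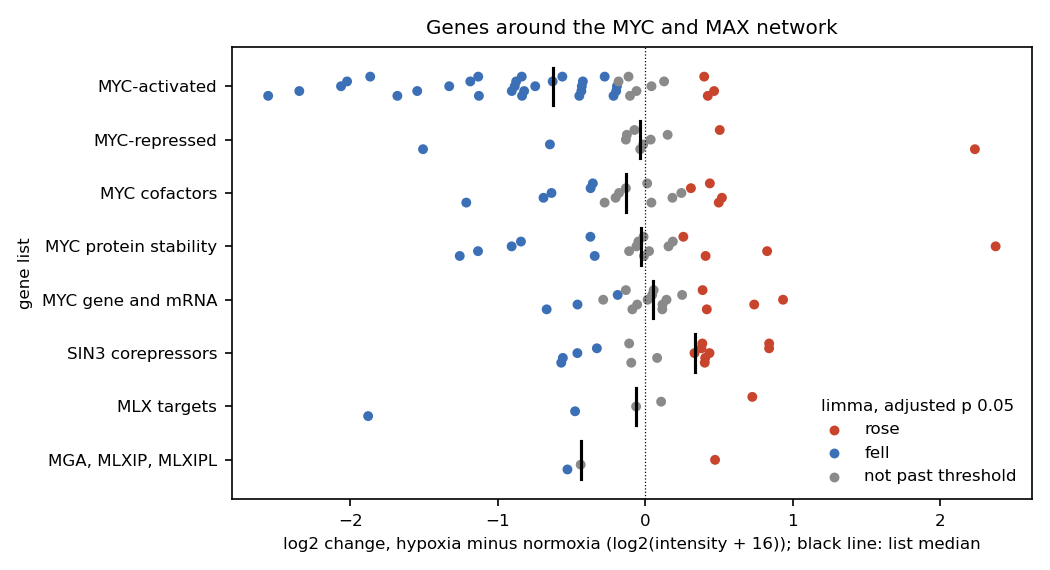
Log2 change, hypoxia minus normoxia, of every measured gene of the 8 lists, 1 point per gene, in red where it rose, in blue where it fell and in grey where it did not pass, with a black line at the median of each list. The MYC-activated genes have their median at -0.63 and the SIN3 genes at 0.33, while the medians of the MYC cofactor, stability, MYC gene and mRNA, MYC-repressed and MLX target lists lie between -0.13 and 0.051.

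The genes with the profile most like that of MYC were found as those with the smallest root mean square difference, over the 6 arrays, of log2 values less their normoxia mean. They were CIP2A (0.0278), PABIR2 (0.0284) and MGAT2 (0.0315), with log2 changes of -1.26, -1.29 and -1.24. Those most like MXI1 were TMPRSS15 (0.0320), IGF1 (0.0513) and DPY19L1P1 (0.0536), with log2 changes of 1.69, 1.72 and 1.70. With 2 conditions, likeness over these arrays reflects mainly a change of the same size.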

How the data were processed

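Total RNA of MM1S cells was converted to biotin-labelled cRNA and hybridised to 6 single-colour arrays, per the labels' protocols. The authors deposited 1 linear intensity per probe set and array; their background correction, summary and scaling are not given in the sources used here, and no detection calls were used. Groups and replicate numbers came from the sample titles. Probe sets took their names from the platform annotation, with symbols updated by Entrez identifier against RefSeq; 41091 carried 1 symbol, and 41037 of these matched.

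Intensities were turned into log2(intensity + 16) and tested with limma 3.58.1 in R 4.3.3 (lmFit and eBayes, two-sided, no covariates, Benjamini-Hochberg over all 54613 probe sets for members, or over 19775 genes, each read by its probe set of the highest mean log2 value, for lists). The threshold was an adjusted p of 0.05. The procedure was tested on simulated data. The text covers all member probe sets and names the 4 genes of the smallest adjusted p in each list, all genes of lists of up to 5, and the 3 genes nearest to MYC and to MXI1; others are marked where named. The members and lists were chosen with earlier results of these data known. Alternatives were pseudocounts of 1 and 64, leaving out probe sets under an intensity of 100 in both conditions, median centring, quantile normalization, an intensity trend, averaging the probe sets of a gene, a replicate block, and leaving out each array or both numbered 0. Same-numbered arrays had correlations of deviations from their group means of 0.214, 0.008 and 0.192 over all probe sets. Differently numbered arrays of the 2 groups had correlations of -0.23 to 0.093. These values do not settle whether the numbers mark pairs. The main fit took the arrays as unpaired, with the replicate block as an alternative. The number of arrays limits the precision.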

Additional observations from a re-analysis of the deposited data

How the results depend on the processing

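Of the 31 member probe sets, 22 kept their side of the threshold in every alternative that gave them a value, 7 of them past it. Of the others, 4 lost their call somewhere (MYCN 209757_s_at, MXD3 and the called probe sets of MLX) and 5 gained one (1 each of MYCL and MNT, 1 of MLX and 2 of MAX). These counts include the average of a gene's probe sets as an alternative for its brightest probe set. That average alone gave the loss of MYCN 209757_s_at and the gain of MAX 209332_s_at, which kept their side in every fit of their own values. Leaving out 1 array gave 5 to 6 member probe sets that rose and 3 to 5 that fell, the 3 being reached without hypoxia array 2 or normoxia array 2. In the gene lists it gave 24 to 27 genes that rose and 45 to 49 that fell, against 27 and 51 among 124 genes with all arrays. With the replicate block, 6 member probe sets rose and 4 fell, as 210752_s_at of MLX lost its call (limma adjusted p = 0.0821). Calls lost in the lists with that block included those of ZBTB17 (limma adjusted p = 0.0706) and HNRNPD (0.0501), and 27 list genes rose and 50 fell. Reading a gene by the mean of its probe sets turned the sign for TIAL1 (-0.53), GART (-0.48), USP7 (-0.21) and GSK3B (-0.049), where the probe sets of a gene disagree. Median centring moved the median of all probe sets from 0.017 to -0.048, and quantile normalization to 0, which changed no direction of a member that was called. Dim probe sets have no detection call, so their changes are limited by background.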
